A study of Mus musculus with 48 samples.

Results

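The libraries described here are 3 of the 48 mouse liver libraries of the series: replicate 2 of the germ-free (GF) females at zeitgeber times (ZT, hours after lights on) 2, 6 and 10. They were chosen by their Nnt counts, which stood far above those of the other 45 libraries, and Wdfy1 and Sult2a6 were named as markers of them with those counts in view. The levels of these genes, and every difference between the high-Nnt libraries and their replicates, therefore describe the choice and are given with no test. Each high-Nnt library was set beside replicate 1 of the same status, sex and ZT, and the 6 conventionally raised (convR) female libraries of the same ZT were the reference for which of the pair was unusual. The study profiled total liver RNA of GF and convR mice of both sexes at ZT2, 6, 10, 14, 18 and 22, with 2 libraries per combination. All mice used here were labelled C57BL/6j, were 15 to 16 weeks old and were fed ad libitum; GF mice have no gut microbiota, convR mice carry one, and no other treatment or allele was labelled. The groups used were GF females at ZT2, 6 and 10 (3 high-Nnt libraries and 3 of replicate 1), convR females at the same ZT (6 libraries), GF and convR females at ZT14, 18 and 22 (6 libraries each) and GF males at ZT2, 6 and 10 (6 libraries). Nothing in the labels says whether replicate libraries came from separate animals, so the p-values below measure only the spread between libraries, which may be technical.

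Nnt encodes nicotinamide nucleotide transhydrogenase, an enzyme of the inner mitochondrial membrane that uses the proton gradient to make NADPH from NADH, and that NADPH feeds the glutathione and thioredoxin systems that remove peroxides. Mice of the C57BL/6J substrain carry a deletion of several exons within Nnt and make no functional protein, whereas the C57BL/6N substrain keeps the gene intact. The mouse reference genome was made from C57BL/6J, so reads from the deleted exons have no place in it and counts of Nnt cover only the exons that both substrains share. Wdfy1 encodes a FYVE and WD40 domain adaptor of endosomes that links Toll-like receptors to their signalling proteins. Sult2a6 belongs to a tandem family of cytosolic sulfotransferases that sulfate hydroxysteroids and bile acids, several of them expressed mainly in female mouse liver.

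The total counts of the high-Nnt libraries were 31637260 to 39546829, against 29769441 to 74892274 over the 48 libraries; the lowest, at ZT2, was below the 32805031 of the next female library. Xist lay between 231 and 393 CPM (counts scaled to an equal library total, with TMM factors that correct for composition), and the Y-linked gene Ddx3y was at 0 in each. The lowest Xist, at ZT10, was below the other 21 female libraries (276 to 451 CPM), and no male library exceeded 0.0976 CPM. The 10 hepatocyte markers, which check the labelled tissue, were all expressed, and their summed level was 126076 to 132589 CPM. That sum was 176399 to 192571 CPM in replicate 1, 120319 to 138722 CPM in convR females at the same ZT, and 169044 to 208456 CPM in GF females at ZT14 to 22. The high-Nnt libraries thus lay within the convR range and below every other GF female library in this sum. Alb, serum albumin, was at 61315 to 65885 CPM against 95391 to 114101 CPM in replicate 1. In bulk tissue, fewer cells of a type and less RNA per cell cannot be told apart.

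Nnt was measured at 184, 163 and 173 CPM in the high-Nnt libraries of ZT2, ZT6 and ZT10. Replicate 1 had 66.4, 77.7 and 66.3 CPM at the same ZT, and the 6 convR libraries had 53.4 to 62.9 CPM. The lowest library inside the choice (163 CPM, ZT6) and the highest outside it (84.4 CPM, GF female, ZT18, replicate 1) left a gap with no library between them. The difference between the members of a pair, on the log2(CPM + 0.5) scale, was 1.46, 1.06 and 1.38. Nnt lies at chr13:119335448-119408997 on the minus strand of GRCm38 and is annotated there with 17 exons and 2505 coding bases. Nnt was detected in every library, and which of its exons the reads covered cannot be read from counts per gene.

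Wdfy1 (chr1:79702262-79776143) separated the same libraries more widely. It was at 33.9, 36.6 and 39.2 CPM in the high-Nnt libraries, at 6.88, 7.67 and 7.70 CPM in replicate 1, and at 7.43 to 9.86 CPM in convR females. The other 45 libraries ranged from 6.41 to 11.3 CPM. Sult2a6 (chr7:14222403-14254870) was close to absent elsewhere: the high-Nnt libraries had 2.50, 4.85 and 2.98 CPM, replicate 1 had 0, 0 and 0.0508 CPM, and no convR library exceeded 0.0923 CPM. In raw counts this was 400 reads over the 3 high-Nnt libraries and 2 reads over the 3 of replicate 1, a depth-scaled ratio of 192 (95% counting interval 52.9 to 1593). Against all 21 other female libraries, which held 16 reads between them, the ratio was 177 (108 to 313). These intervals cover counting error only, over reads pooled from several libraries. Sult2a6 was named with these counts in view, so the ratios describe the choice and the intervals test nothing. All 3 genes set the high-Nnt libraries apart from both replicate 1 and convR females, as the plot of marker levels by ZT shows.

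**Figure D1:**
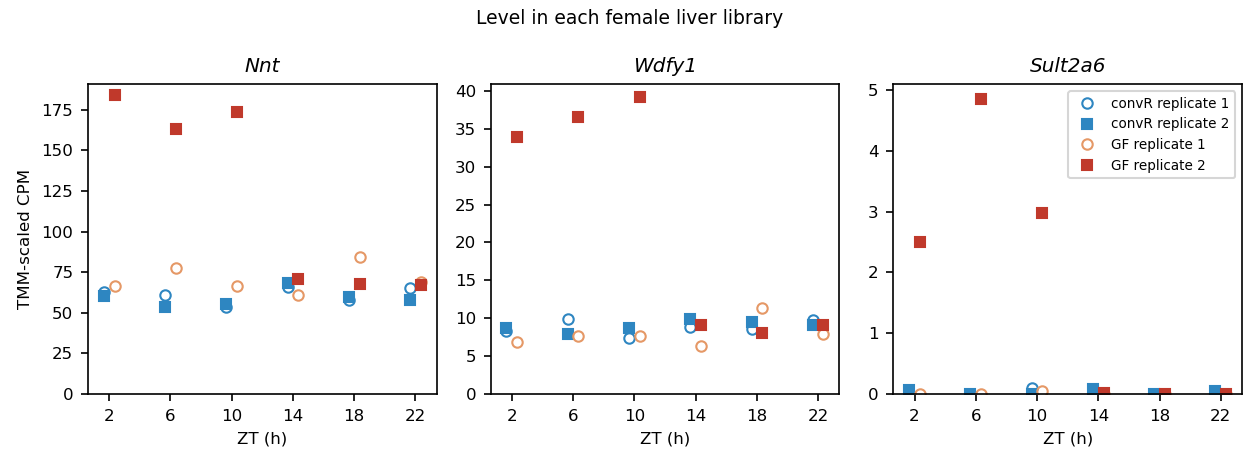
Level of Nnt, Wdfy1 and Sult2a6 (TMM-scaled CPM) in each female library against ZT in hours, 1 point per library, by status and replicate. The 3 high-Nnt libraries sit at 163 to 184 CPM of Nnt, and no other library exceeds 84.4 CPM.

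Replicate numbers were also compared in libraries outside the choice. All of those had low Nnt by the choice itself, and Wdfy1 was named with the same counts in view. For Nnt these contrasts could not show a difference of the size above, and for neither gene is anything read from them. In GF females at ZT14, 18 and 22, replicate 2 had 70.8, 67.6 and 67.4 CPM of Nnt and replicate 1 had 61.0, 84.4 and 69.2 CPM. The log2 difference of replicate 2 from replicate 1 was -0.04 (SE 0.15, adjusted p = 0.999865, edgeR quasi-likelihood test, n = 3 pairs). The same contrast gave -0.07 in convR females and -0.07 in GF males at ZT2 to 10, and for Wdfy1 it gave 0.08, -0.01 and -0.15 in the 3 contrasts, none of which passed the test. Over all genes this test called 1 of 14999 in GF females at ZT14 to 22 (0.00667%), 0 of 15417 in convR females (0%) and 0 of 16234 in GF males (0%). At an unadjusted p under 0.05 the counts were 290, 313 and 648, and DESeq2 called 18, 6 and 50 genes.

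Of 10 loci known to differ between C57BL/6 substrains or mouse strains, 6 were expressed highly enough to compare. Nnt and Wdfy1 were the ones with every pair at least 2-fold apart, as were 0.307% of all genes. Both had marked these libraries beforehand, so their calls restate the choice. Of the 6, 3 were higher and 1 lower at 3 of 3 ZT, where 29.0% of all genes went in 1 direction. At ZT14 to 22, 1 of the 7 tested was lower in GF and 0 higher, where 4.92% of all genes passed. Nlrp12, an inflammasome regulator, was at 19.8, 26.5 and 19.3 CPM in the high-Nnt libraries and at 12.3, 7.64 and 10.6 CPM in replicate 1. Another female library reached 26.01 CPM of Nlrp12, so the groups of libraries overlapped. Within 2 Mb of Nnt, 0 of 7 compared genes had every pair at least 2-fold apart (mean log2 differences -1.36 to 0.88). Within 2 Mb of Wdfy1 it was 0 of 7 (0.02 to 0.29). Within 2 Mb of Sult2a6 it was 2 of 31, Sult2a2 (lower) and Sult2a7 (higher). With 0.307% of all genes so far apart, a count of 0 over so few neighbours shows nothing either way. Gm7120, picked out once its values were known, lay 79.0 kb from Nnt and was lower in each pair (-1.80, -1.50 and -0.77). Substrain or genotype of the mice behind these libraries was not tested, since the counts carry no sequence.

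Across all genes, 39 of 12691 (0.307%) were at least 2-fold apart in the same direction in all 3 ZT pairs, 23 higher (0.181%) and 16 lower (0.126%) in the high-Nnt libraries. The contrast contains the values that chose the libraries, so nothing is read from this count. The same count between replicates was 9 of 12643 (0.0712%) in GF females at ZT14 to 22, 2 of 12730 (0.0157%) in convR females at ZT2 to 10, and 18 of 12964 (0.139%) in GF males at ZT2 to 10. Either side of a pair can be the unusual one. By distance from the mean of the 2 convR libraries of the same ZT, the high-Nnt library was the farther one at 3 of 3 ZT for 21 of the 39 genes, replicate 1 was for 10, and 8 were mixed. Over all genes compared these shares were 11.6%, 15.2% and 73.1%. Set against all 21 other female libraries, the 3 high-Nnt libraries lay above every one of them for 51 genes (0.402%) and below every one for 36 (0.284%), together 87 (0.686%). Of the 39 genes, 11 lay above and 8 below.

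**Figure D2:**
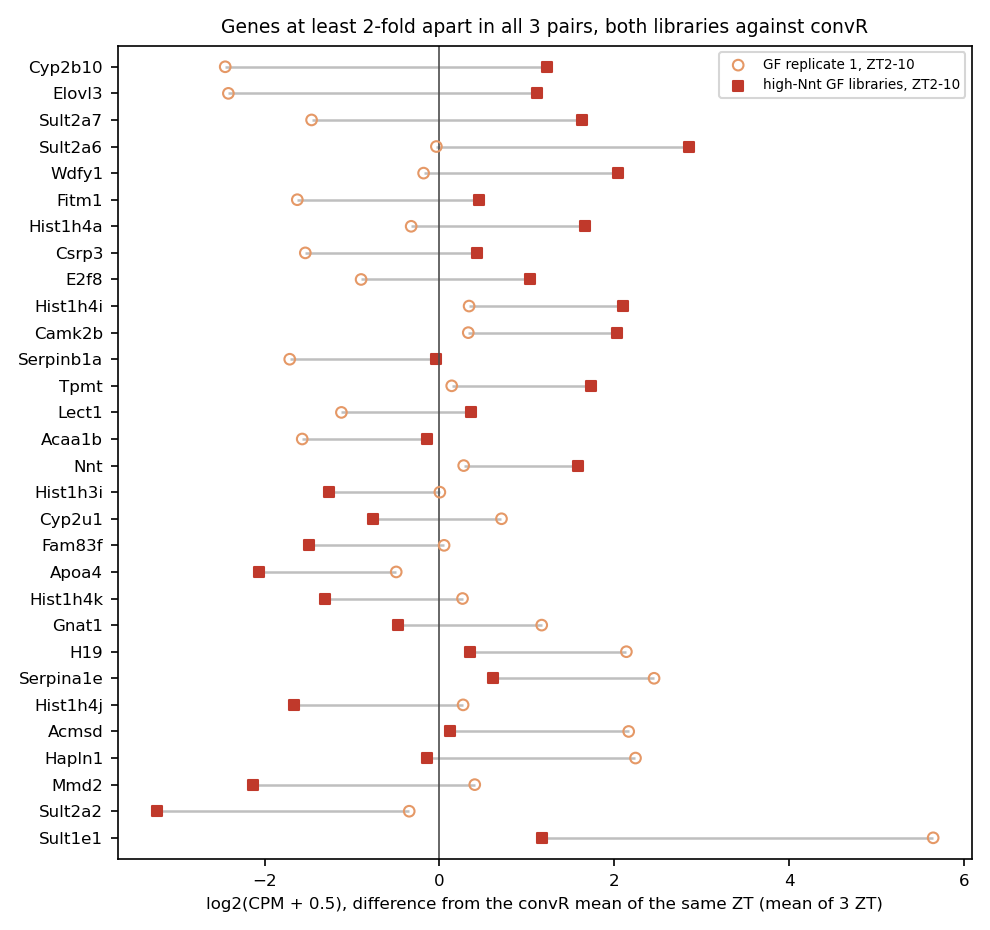
Mean log2 difference from convR females of the same ZT (log2 of CPM + 0.5) for the named genes with all 3 pairs at least 2-fold apart, with a square for the high-Nnt libraries and a circle for replicate 1, each a mean over 3 ZT. Nnt, Wdfy1, Tpmt and Sult2a2 have replicate 1 near convR, while Sult1e1, Hapln1 and H19 have the high-Nnt libraries nearer to it.

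The hydroxysteroid sulfotransferases held the most opposed values. Their first 90 coding bases are shown for the members that differed in every pair, because the genes are near copies and reads could be shared among them. Capitals mark positions not shared by all 3 sequences (34 of them), taken from the GRCm38 genome in coding sense; the GRCm38 positions are chr7:13733559-13733648 on the plus strand for Sult2a2, and chr7:14254744-14254833 and chr7:14492882-14492971 on the minus strand for Sult2a6 and Sult2a7.
Sult2a2: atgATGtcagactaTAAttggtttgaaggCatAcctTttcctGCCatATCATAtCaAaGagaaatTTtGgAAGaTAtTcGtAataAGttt
Sult2a6: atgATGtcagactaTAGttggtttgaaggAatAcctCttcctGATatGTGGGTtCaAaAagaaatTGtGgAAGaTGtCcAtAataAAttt
Sult2a7: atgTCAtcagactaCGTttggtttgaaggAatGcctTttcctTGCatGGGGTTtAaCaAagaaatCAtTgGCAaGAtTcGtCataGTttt

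Sult2a2 was at 14.9, 27.0 and 18.01 CPM in the high-Nnt libraries of ZT2, ZT6 and ZT10, at 137, 100 and 232 CPM in replicate 1, and at 127 to 269 CPM in convR females. Sult2a1, a neighbouring gene, was at 21.3, 59.0 and 31.6 CPM in the high-Nnt libraries, against 157, 59.8 and 319 CPM in replicate 1. Sult2a7 went the other way, with 7.12, 17.4 and 13.0 CPM against 2.14, 0.189 and 1.12 CPM, and so did Sult2a6. For all 4 genes the high-Nnt libraries lay outside the range of the 21 other female libraries, as for 0.686% of all genes. They were below it for Sult2a1 and Sult2a2 and above it for Sult2a6 and Sult2a7. For Sult2a1 the separation was slight (59.0 against 59.8 CPM at ZT6). On CPM + 0.5 the gap was 1.23-fold for Sult2a7, 3.66-fold for Sult2a2 and 5.06-fold for Sult2a6. Summed over Sult2a1 to Sult2a7, the family was at 51.5, 118 and 71.5 CPM in the high-Nnt libraries, 302, 162 and 574 CPM in replicate 1, and 298 to 830 CPM in convR females, so the opposed members did not balance. Of the sequence windows of 100 bases, the read length, 64 of 483 in Sult2a2 (13.3%) were also present in another member, 6.88% in Sult2a1, and 0 in Sult2a6 and Sult2a7. Sharing of reads among near copies makes the split of Sult2a1 and Sult2a2 uncertain. In the test of GF against convR females at ZT14 to 22, neither Sult2a2 (log2 0.18, adjusted p = 0.515) nor Sult2a7 (-1.05, adjusted p = 0.147) passed.

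Replication-dependent histone H4 genes on chromosome 13 also differed in opposite directions. Hist1h4a and Hist1h4i were higher and Hist1h4j and Hist1h4k lower, within chr13:21735064-23761230. They encode the same protein, so their coding sequences differ at synonymous positions, and capitals below mark the 19 positions of the first 90 coding bases that are not shared by all 4. The segments are chr13:23761068-23761157 (minus strand), chr13:22041234-22041323 (minus), chr13:21735096-21735185 (plus) and chr13:21750416-21750505 (minus) of GRCm38, in the order printed.
Hist1h4a: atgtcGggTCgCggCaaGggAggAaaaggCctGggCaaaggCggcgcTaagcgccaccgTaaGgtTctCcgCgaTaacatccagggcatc
Hist1h4i: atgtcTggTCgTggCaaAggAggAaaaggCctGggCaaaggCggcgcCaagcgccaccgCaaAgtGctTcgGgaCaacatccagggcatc
Hist1h4j: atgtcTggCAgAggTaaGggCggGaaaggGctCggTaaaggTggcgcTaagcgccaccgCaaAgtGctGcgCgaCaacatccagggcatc
Hist1h4k: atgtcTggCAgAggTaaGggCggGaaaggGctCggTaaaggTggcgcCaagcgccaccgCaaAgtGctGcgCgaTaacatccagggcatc

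Hist1h4i was at 8.68, 8.41 and 12.0 CPM in the high-Nnt libraries, 3.11, 2.07 and 2.36 CPM in replicate 1 and 1.55 to 2.19 CPM in convR females. Hist1h4a was at 9.61, 6.89 and 10.1 CPM against 2.58, 1.73 and 1.37 CPM. Hist1h4j was at 0.531, 0.699 and 0.650 CPM against 2.98, 3.80 and 4.83 CPM, and Hist1h4k at 1.69, 1.45 and 1.65 CPM against 5.17, 5.97 and 6.00 CPM. The high-Nnt libraries did not overlap with the other 21 female libraries for any of these 4 genes, as for 0.686% of all genes. The same held for Hist1h3i, a histone H3 gene, at 0.499, 0.988 and 0.875 CPM against 1.98, 3.27 and 2.54 CPM. These genes were picked for having every pair at least 2-fold apart, so nothing is read from the lack of overlap. The 11 Hist1h4 genes summed to 123, 124 and 177 CPM in the high-Nnt libraries and 154, 166 and 177 CPM in replicate 1, inside or near the 110 to 161 CPM of convR females. The levels of single genes thus stood apart while the family total did so far less. Windows of 100 bases shared with another of the 4 made up 65.2% of Hist1h4a, 29.5% of Hist1h4i, 51.0% of Hist1h4j and 65.2% of Hist1h4k, so reads can be assigned to the wrong copy. Hist1h4m, another H4 gene at chr13:21811746-21812147, was at 0.121 CPM or less in all 12 GF female libraries and at 1.12 to 4.54 CPM in convR females at ZT2 to 10, so for it the high-Nnt libraries matched replicate 1.

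Further genes put the high-Nnt libraries on the unusual side. Tpmt (chr13:47022482-47044737), the methyltransferase that inactivates thiopurine drugs, was at 50.6, 58.8 and 64.4 CPM, against 20.1, 14.6 and 22.5 CPM in replicate 1 and 15.2 to 22.6 CPM in convR females. Its 17 compared neighbours within 2 Mb included none with all pairs at least 2-fold apart, too few to read beside 0.307% of all genes. Camk2b, a subunit of calcium/calmodulin-dependent kinase II, was at 12.8, 13.0 and 16.4 CPM against 4.22, 2.23 and 6.38 CPM. Both genes were above all 21 other female libraries, as were 0.402% of all genes. Cyp2c29, a cytochrome P450 inducible through the receptor CAR, was at 3278, 2872 and 2692 CPM against 1382, 1363 and 1271 CPM and 1024 to 1834 CPM in convR females. Tymp, thymidine phosphorylase, picked out only once its values were known, was at 203, 166 and 126 CPM against 78.6, 69.0 and 49.0 CPM, and the overlapping gene Sco2 makes that count uncertain.

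Lower on the same side was Apoa4, an apolipoprotein of triglyceride-rich particles, at 39.1, 52.7 and 67.0 CPM against 128, 118 and 241 CPM in replicate 1 and 184 to 262 CPM in convR females. Mmd2, a membrane protein of the progestin and adipoQ receptor family, was at 4.77, 2.41 and 3.13 CPM against 14.3, 46.0 and 15.2 CPM. The gene 5033411D12Rik, likewise picked out once its values were known, was at 2.47, 2.46 and 2.93 CPM against 14.4, 17.7 and 16.0 CPM and 15.6 to 22.2 CPM in convR females. All of these lay below the 21 other female libraries, as did 0.284% of all genes. The 39 genes lay on 13 chromosomes, with 10 of the 38 that have a position falling into 3 groups within 2 Mb: the H4 genes, the Sult2a genes, and Csrp3, E2f8 and Gm2788, of which E2f8 and Gm2788 overlap.

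For 10 of the 39 genes, replicate 1 was the side farther from convR at 3 of 3 ZT on the log2 scale. Sult1e1, estrogen sulfotransferase, was at 0.624, 1.69 and 1.68 CPM in the high-Nnt libraries, 17.6, 48.8 and 65.0 CPM in replicate 1 and 0.0712 to 0.600 CPM in convR females. Elovl3, an elongase of very long chain fatty acids, was at 10.3, 7.91 and 4.28 CPM against 0.475, 0 and 0.0762 CPM, with 1.41 to 5.61 CPM in convR females. Over raw counts Elovl3 had 828 reads in the high-Nnt libraries and 21 in replicate 1. The depth-scaled ratio was 37.9 (95% counting interval 24.6 to 61.6). That interval covers counting error only and is no test. For Sult1e1 the mean log2 difference from convR females was 1.18 in the high-Nnt libraries and 5.65 in replicate 1. For Elovl3 it was 1.11 and -2.41, with replicate 1 near 0 CPM. The high-Nnt library was above and replicate 1 below both convR libraries of Elovl3 at each ZT. Acmsd, which diverts tryptophan breakdown away from NAD synthesis, was at 34.2, 20.0 and 10.6 CPM against 77.0, 116 and 60.1 CPM. Hapln1, a link protein of hyaluronan matrix, was at 0.218, 0.0723 and 0.175 CPM against 4.67, 1.79 and 2.82 CPM, and the imprinted RNA H19 at 1.19, 0.723 and 1.70 CPM against 4.59, 7.51 and 4.12 CPM. Serpina1e, one of several near copies of alpha-1-antitrypsin, was at 49.5, 122 and 78.5 CPM against 366, 298 and 203 CPM; its count is uncertain for that reason.

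Higher in the high-Nnt libraries, and nearer to convR there, were Serpinb1a, an inhibitor of neutrophil elastase (16.8, 16.1 and 16.1 CPM against 7.01, 6.51 and 2.31 CPM), and Csrp3, a muscle LIM protein (22.8, 24.7 and 29.3 CPM against 10.9, 2.04 and 9.65 CPM). Acaa1b, a peroxisomal thiolase, was at 1039, 505 and 586 CPM against 360, 152 and 288 CPM, with 644 to 827 CPM in convR females. Cyp2b10, the classical CAR target, was mixed: the high-Nnt libraries had 206, 86.7 and 36.3 CPM, replicate 1 had 13.1, 4.09 and 4.52 CPM, and convR females had 19.0 to 56.7 CPM. The high-Nnt library was above and replicate 1 below both convR libraries at each ZT. E2f8, a repressor of the cell cycle, was also mixed, at 5.68, 8.00 and 5.73 CPM against 1.21, 1.82 and 0.991 CPM, with 1.85 to 5.74 CPM in convR females. Fitm1, which helps to form lipid droplets, was at 6.99, 5.95 and 8.23 CPM against 1.45, 0.566 and 2.18 CPM. For Fitm1 the high-Nnt libraries were inside or above the convR range of 3.21 to 6.85 CPM, and replicate 1 was below it.

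The GF females of ZT14, 18 and 22 share no library with the pairs, so they show which genes differed between GF and convR without them. Between GF and convR females at these times, 789 of 16034 genes passed the test (4.92%), 379 higher (2.36%) and 410 lower (2.56%) in GF. This count fell to 7 or 13 without convR replicate 2 or 1, was 1612 without GF replicate 2, and became 2162 with library-size scaling alone, which gave 189 higher and 1973 lower genes and moved the median of all genes by -0.15. Of the 39 genes, 37 could be tested there and 14 passed. They were 7 of 10 on the replicate 1 side, 5 of 8 mixed, and 2 of 19 on the high-Nnt side. All 14 went in the direction that replicate 1 took from convR females at ZT2 to 10, although for Gm15611 that log2 difference was only -0.02. The 39 genes came from the contrast that chose the libraries and were sorted by distance from convR. The split among the sides can therefore follow from the sorting, and nothing is read from it. All libraries of ZT14 to 22 had low Nnt by the choice. On the replicate 1 side, Sult1e1 (log2 5.92, SE 0.43, adjusted p = 0.000186), Hapln1 (3.75, adjusted p = 0.00501), H19 (2.91, adjusted p = 0.0346), Gnat1 (1.51, adjusted p = 0.0281) and Acmsd (1.05, adjusted p = 0.00219) were higher in GF, and Elovl3 (-2.02, adjusted p = 0.0159) and Serpinb1a (-1.20, adjusted p = 0.0204) lower. Among the mixed genes, Cyp2b10 was lower (-2.17, adjusted p = 0.00504), as were E2f8, Fitm1, Vnn1 and Gm2788. On the high-Nnt side the 2 genes were Hist1h4a (-1.23, adjusted p = 0.0124) and Gm15611, and Nnt (0.17, adjusted p = 0.218), Wdfy1 (-0.10, adjusted p = 0.676), Tpmt (0.06, adjusted p = 0.803) and Apoa4 (-0.56, adjusted p = 0.0987) did not pass. Sult1e1 passed under each alternative run. Hapln1, H19, Elovl3, Cyp2b10 and E2f8 did not pass without convR replicate 1 or 2 (adjusted p = 0.166 to 0.492), Elovl3 and Cyp2b10 did not with all 24 female libraries in 1 fit (adjusted p = 0.195 and 0.0713), and H19 did not with robust dispersions (adjusted p = 0.0877).

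Replicate 1 showed more of the GF pattern over all genes that the later ZT called. Of the 379 higher genes, 362 could be compared at ZT2 to 10, where their median log2 difference from convR females was 0.25 in replicate 1 and 0.09 in the high-Nnt libraries. Of the 410 lower genes, 301 could be compared, with medians of -0.32 and -0.12, while over all 12691 genes both medians were near 0 (-0.00 and 0.01). Replicate 1 and the high-Nnt libraries were each set against the same convR libraries, so these are values side by side and not separate evidence. The higher genes lay above the mean of the 2 convR libraries at 3 of 3 ZT in 206 cases for replicate 1 (56.9%) and in 136 for the high-Nnt libraries (37.6%), against 20.0% and 20.9% over all genes. The lower genes lay below it in 169 (56.1%) and 103 cases (34.2%), against 21.2% and 18.2%. For the 32 compared genes at least 2-fold higher the medians were 1.04 and 0.34, and for the 50 at least 2-fold lower -0.91 and -0.30. In each of these 4 sets the median of the high-Nnt libraries lay between 0 and that of replicate 1.

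**Figure D3:**
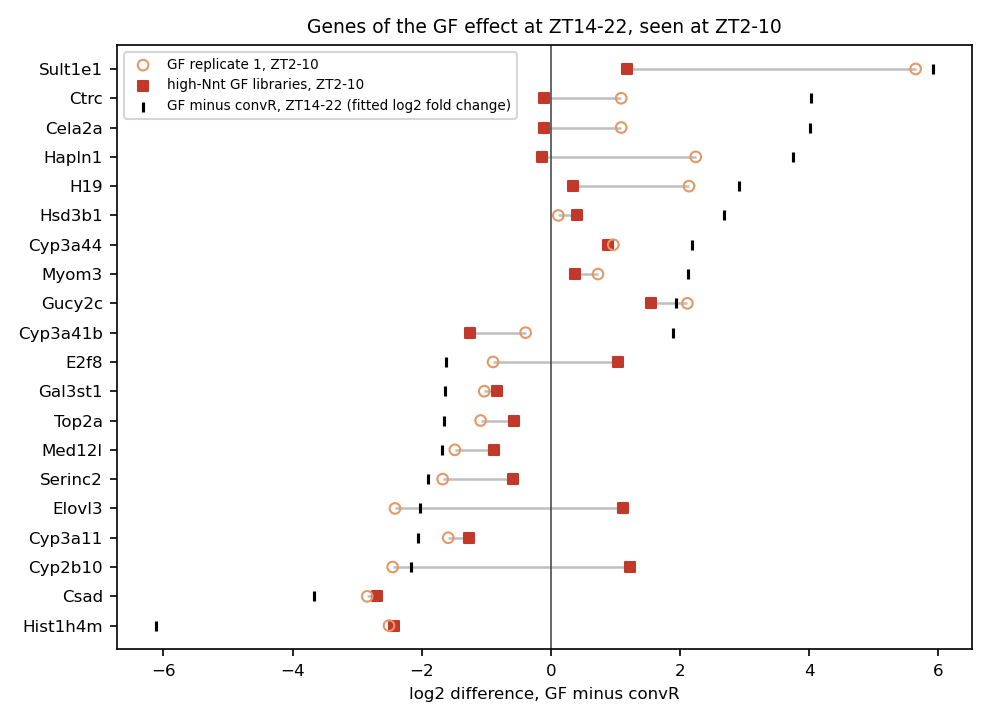
Log2 difference from convR females at ZT2 to 10 (log2 of CPM + 0.5) for the 10 highest and 10 lowest genes of the GF against convR comparison at ZT14 to 22, in the high-Nnt libraries (squares) and in replicate 1 (circles), with the fitted log2 fold change at ZT14 to 22 as a tick. Sult1e1, Hapln1 and H19 are high in replicate 1, whereas Csad, Cyp3a11 and Hist1h4m are low in both.

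Among the most changed of those genes, some lay on the GF side of convR in the high-Nnt libraries too. Csad, which makes taurine for bile acid conjugation (log2 -3.67 at ZT14 to 22, adjusted p = 0.000703), was at 23.0, 28.4 and 36.5 CPM in the high-Nnt libraries, 15.1, 57.1 and 19.7 CPM in replicate 1 and 45.3 to 497 CPM in convR females. Cyp3a11, the classical target of the receptor PXR (-2.06, adjusted p = 1.98e-05), was at 950, 1260 and 1103 CPM, 950, 941 and 748 CPM, and 2052 to 3592 CPM. For these genes both replicates were on the same side of convR. Gucy2c, the guanylin receptor (1.94, adjusted p = 0.00027), was at 3.37, 1.62 and 3.48 CPM in the high-Nnt libraries and 1.77, 7.73 and 5.06 CPM in replicate 1, against 0.332 to 0.915 CPM in convR females. Csad did not pass without convR replicate 1 or 2 (adjusted p = 0.0515 and 0.0635), nor Gucy2c without convR replicate 2 (adjusted p = 0.0519). Hsd3b1, a steroid dehydrogenase (2.68, adjusted p = 0.000768), was at 0.0312, 0.868 and 1.40 CPM in the high-Nnt libraries, 0.422, 0.440 and 0.381 CPM in replicate 1 and 0.124 to 0.772 CPM in convR females. For Hsd3b1 the high-Nnt libraries of ZT6 and ZT10 lay above both convR libraries of their ZT, and that of ZT2 lay below both. Replicate 1 lay above both at ZT6 (0.124 and 0.255 CPM in convR) and between them at ZT2 and ZT10. Cyp3a41b (1.88, adjusted p = 0.0252) was at 0.156, 10.6 and 4.33 CPM, 6.46, 1.10 and 18.3 CPM, and 2.47 to 30.1 CPM in the same order. At ZT6 the high-Nnt library lay above both convR libraries (2.47 and 3.57 CPM) and replicate 1 below both. At ZT2 and ZT10 neither replicate lay above both convR libraries of its ZT. Neither Hsd3b1 nor Cyp3a41b passed without convR replicate 1 or 2 (adjusted p = 0.0778 to 0.281), and Cyp3a41b did not pass without GF replicate 2 (adjusted p = 0.0800), with robust dispersions (adjusted p = 0.0711) or with all 24 female libraries in 1 fit (adjusted p = 0.115). Ctrc and Cela2a, pancreatic proteases that overlap in the annotation and carry nearly the same counts, had 1 GF library at 78.5 CPM of Ctrc at ZT14 to 22, against a GF median of 2.98 CPM.

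The labelled comparison of GF with convR females at ZT2 to 10 changed when the high-Nnt libraries were left out. Dropping either GF replicate leaves 1 GF library per ZT, so counts of calls cannot show a dependence particular to the high-Nnt libraries. This holds for the gene lists below too. With all 12 libraries, 975 of 16264 genes passed (5.99%), and without the 3 high-Nnt libraries 1239 of 16660 passed (7.44%). Of the 16231 genes tested in both fits, 599 were called in both in the same direction, 374 only with the high-Nnt libraries and 639 only without. Of the genes named from the comparison at ZT14 to 22, Cyp2b10 had a log2 difference of 0.34 (adjusted p = 0.815) with them and -2.56 (adjusted p = 0.0004) without, Elovl3 0.23 (adjusted p = 0.901) and -5.96 (adjusted p = 0.00342), and E2f8 0.40 (adjusted p = 0.667) and -1.17 (adjusted p = 0.0492). Each had a positive difference that did not pass with the high-Nnt libraries, and passed as lower in GF without them. Without replicate 1 in place of the high-Nnt libraries, the same genes passed as higher in GF: Cyp2b10 at 1.23 (adjusted p = 0.00186), Elovl3 at 1.19 (adjusted p = 0.0456) and E2f8 at 1.13 (adjusted p = 0.0366). The count of 975 became 3 or 29 without convR replicate 1 or 2, and library-size scaling alone gave 1145, of which 19.2% were higher in place of 40.4%.

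By gene list, 18 of 22 cholesterol synthesis genes were lower in GF without the high-Nnt libraries and 3 of 22 with them. Mvd, for example, was at 12.2, 24.5 and 48.3 CPM in the high-Nnt libraries, 39.2, 2.55 and 10.1 CPM in replicate 1 and 25.1 to 61.9 CPM in convR females. All 22 genes, Mvd among them, had the high-Nnt library as the lower of the pair at ZT2 and the higher at ZT6 and at ZT10. Squalene epoxidase, Sqle, was at 27.3, 65.1 and 162 CPM in the high-Nnt libraries and 104, 9.96 and 41.9 CPM in replicate 1. CAR and PXR target genes lower in GF numbered 8 of 24 without and 2 with, and genes of PPAR alpha and fatty acid oxidation 6 of 25 without and 0 with. Male-biased liver genes numbered 4 higher and 5 lower of 19 tested without and 5 and 0 with. Lower lipogenesis genes numbered 13 of 16 without and 12 with, nearly the same number. Higher amino acid and urea genes numbered 5 of 14 without and 2 with, and higher acute phase genes 8 of 17 and 5. Over all genes the background of these calls was 2.80% higher and 4.63% lower without the libraries, and 2.42% and 3.57% with them.

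Within the pairs, 18 of 24 compared genes of PPAR alpha and fatty acid oxidation were higher in the high-Nnt libraries at 3 of 3 ZT and 0 lower (median log2 0.43), where 15.7% of all genes were higher and 13.3% lower (median 0.01). Vnn1, a pantetheinase, was at 47.4, 55.8 and 79.4 CPM against 21.3, 15.6 and 36.2 CPM. The set lay nearer to convR in the high-Nnt libraries (median 0.17) than in replicate 1 (-0.21) by a small margin only. CAR and PXR targets were higher at 3 of 3 ZT for 10 of 23 and lower for 0 (median 0.46). Besides Cyp2c29, the related Cyp2c37 (1171, 1186 and 1409 CPM against 661, 528 and 638 CPM) and Cyp2c54 (536, 576 and 560 CPM against 340, 180 and 245 CPM) lay above all 21 other female libraries, as did Cyp2c50 and the transporter Abcc3. Over all genes 0.402% lay above those libraries. The contrast is the one that chose the libraries, so nothing about CAR and PXR targets is read from these single members. Cyp2c genes are near copies, so their split is uncertain. Cyp7b1, an oxysterol hydroxylase, was at 28.9, 38.2 and 41.1 CPM against 17.0, 5.25 and 14.6 CPM, also above those 21.

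**Figure D4:**
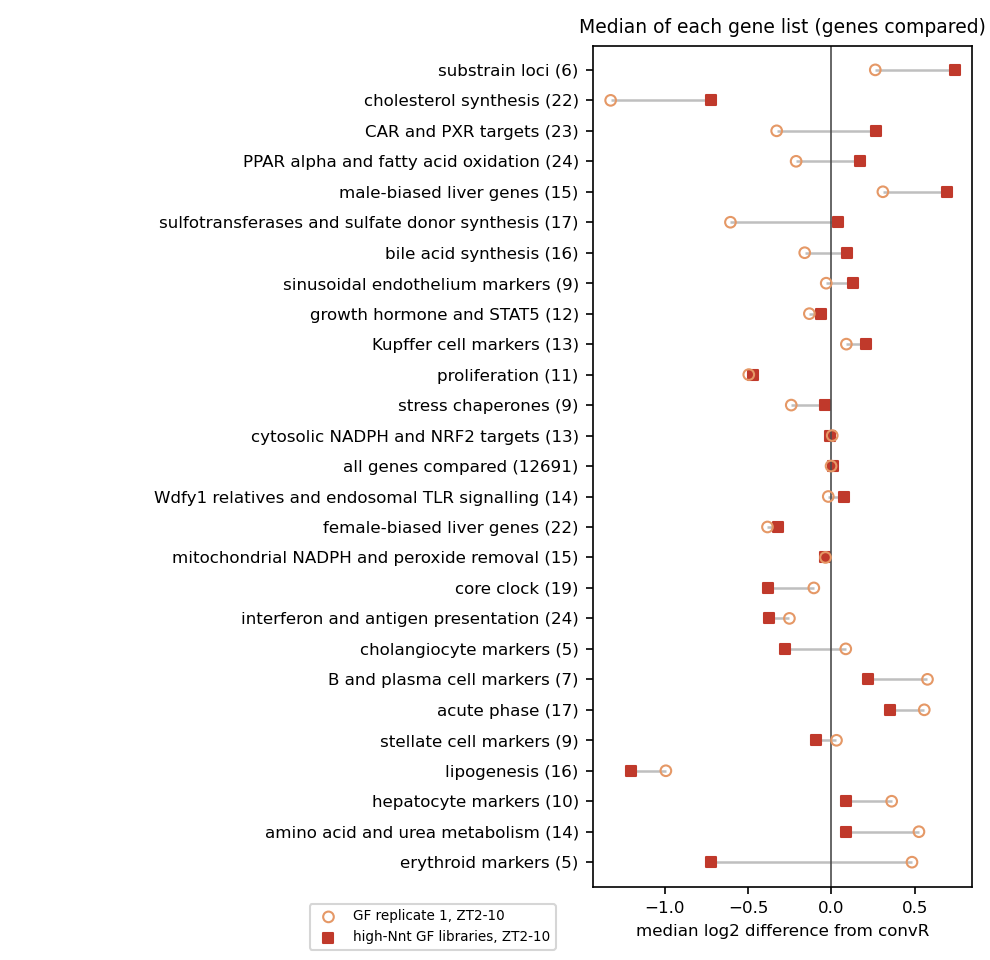
Median log2 difference from convR females at ZT2 to 10 (log2 of CPM + 0.5) for each gene list, in the high-Nnt libraries and in replicate 1. For PPAR alpha and fatty acid oxidation the medians are 0.17 in the high-Nnt libraries and -0.21 in replicate 1, and for amino acid and urea metabolism 0.09 and 0.53.

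Amino acid and urea metabolism went the other way, with 7 of 14 genes lower at 3 of 3 ZT and 0 higher (median -0.33). Ass1, argininosuccinate synthase, was at 3575, 2585 and 2565 CPM in the high-Nnt libraries, 4613, 3991 and 4004 CPM in replicate 1 and 2408 to 3814 CPM in convR females, and it was higher in GF at ZT14 to 22 (log2 0.92, adjusted p = 0.000768). Oat, ornithine aminotransferase, did not follow: it was at 1322, 1475 and 1471 CPM, 1439, 1387 and 1557 CPM, and 627 to 962 CPM. For Oat all GF libraries lay above convR, whereas for Ass1 the high-Nnt libraries lay inside the convR range and replicate 1 above it.

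Genes that work beside Nnt showed no common direction. Of 15 compared genes for mitochondrial NADPH and peroxide removal, 5 were higher and 3 lower at 3 of 3 ZT (median -0.00). Only Nnt, which chose the libraries, had all pairs at least 2-fold apart. Of all genes 0.307% did, so such counts in lists this small are not read as a result. Gpx1, a glutathione peroxidase, was at 1535, 1423 and 1572 CPM against 1274, 990 and 1103 CPM, inside the 1289 to 1607 CPM of convR females. Txn2, the mitochondrial thioredoxin, was at 92.0, 76.3 and 83.7 CPM against 96.5, 94.7 and 102 CPM. Idh2, another mitochondrial source of NADPH, was at 163, 108 and 136 CPM against 152, 174 and 155 CPM, higher in 1 pair and lower in the others. Of 13 cytosolic NADPH and NRF2 target genes 0 had all pairs at least 2-fold apart. Gstm1 lay above the 21 other female libraries (1557, 1349 and 1345 CPM against 1144, 887 and 891 CPM in replicate 1), as did 0.402% of all genes. Of 14 relatives of Wdfy1 and members of endosomal Toll-like receptor signalling, only Wdfy1, itself a marker of the libraries, had all pairs at least 2-fold apart.

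The circadian clock genes gave 0 of 19 with all pairs at least 2-fold apart, too few to read beside 0.307% of all genes. Single ZT stood out. At ZT2, Per1, a clock repressor, was at 29.2 CPM in the high-Nnt library, 2.24 CPM in replicate 1 and 2.44 and 3.65 CPM in convR females. Nr1d1, which encodes REV-ERB alpha, was at 0.874, 24.7, 4.98 and 4.88 CPM in the same order. The 2 GF libraries of ZT2 thus lay on opposite sides of convR for Nr1d1. At ZT6, the output gene Dbp was at 1.95 CPM in the high-Nnt library and 4.71 CPM in replicate 1, against 94.1 and 124 CPM in convR females. Both GF libraries of ZT6 stood apart from convR at that time, which is a difference the replicates shared.

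Markers of other cells of the liver were measured beside these results. The summed level of 13 Kupffer cell markers was 902 to 1018 CPM in the high-Nnt libraries, 653 to 1165 CPM in replicate 1 and 764 to 901 CPM in convR females. Sinusoidal endothelium markers summed to 699 to 769 CPM, 636 to 687 CPM and 630 to 722 CPM. Stellate cell markers summed to 559 to 620 CPM, 640 to 686 CPM and 589 to 692 CPM. Adipocyte markers summed to 5.55 to 6.22 CPM in the high-Nnt libraries and 4.75 to 6.27 CPM in convR females, but to 9.43 to 12.1 CPM in replicate 1 and 8.01 to 20.1 CPM in GF females at ZT14 to 22. Erythroid markers summed to 28.6 to 108 CPM, 61.5 to 237 CPM and 46.0 to 172 CPM, with overlap between the groups. Cholangiocyte markers summed to 37.7 to 40.4 CPM in the high-Nnt libraries, below the 43.6 to 47.1 CPM of replicate 1 and the 43.4 to 58.0 CPM of convR females, with 35.3 to 50.9 CPM in GF females at ZT14 to 22. Neutrophil and monocyte markers summed to 92.0 to 138 CPM, 84.1 to 136 CPM and 71.6 to 92.1 CPM. Of the adipocyte genes, Adipoq, Plin1, Lep and Retn lay between 0 and 0.0312 CPM in the high-Nnt libraries. The part of these cells in the results above was not tested.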

How the data were processed

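Gene counts of the 48 liver libraries were deposited by the authors as raw read counts per gene, in 1 table for females and 1 for males. Per the submitters' processing notes, alignment was to mm10 by STAR 2.4.0i; how genes were counted, with which annotation and strand setting: not given in the sources used here. Genes that overlap on opposite strands may therefore share reads. Per the labels' protocols, libraries were made from 250 ng of total RNA with a stranded kit after removal of ribosomal RNA, and read as pairs of 100 bases. Coordinates and sequences come from GENCODE M21 (GRCm38), which matched 36308 of 38087 genes by Ensembl ID. CPM were scaled by TMM factors, and pairs were compared on log2(CPM + 0.5) over genes with a mean CPM of at least 1. Tests were edgeR 4.0.16 quasi-likelihood F tests (R 4.3.3) with filterByExpr and Benjamini-Hochberg adjustment, called under 0.05, and were checked on simulated data. DESeq2 1.42.0 was an alternative, as were library-size scaling, no filter, other pseudocounts and folds, and leaving out replicates. Genes named are the 15 highest and 15 lowest of the pair differences, the 10 highest and 10 lowest of GF against convR females at ZT14 to 22, and members of the gene lists; predicted genes, Riken clones and pseudogenes were counted and not named, apart from those said to be chosen after their values were seen or counted with 5 or fewer others. The libraries, genes and lists were chosen with earlier results of these data known.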

Additional observations from a re-analysis of the deposited data

Results flagged for a closer look

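For 24 combinations of a gene and a group of 6 libraries, the highest and lowest library were checked for a wide gap to the rest, where chance gives about 1 in 20. Sult2a6 in GF females at ZT14 to 22 had a single library above 0, replicate 2 of ZT14 at 0.0256 CPM, which is 1 read. Sult2a2 in convR females at ZT14 to 22 had its lowest library at 121 CPM, replicate 2 of ZT18, with the next at 151 CPM; the high-Nnt libraries lay far below both. Sult1e1 in GF females at ZT14 to 22 had its highest library at 60.2 CPM, replicate 1 of ZT18, with the next at 28.2 CPM. That library also had the highest Nnt outside the high-Nnt libraries, 84.4 CPM.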

How the results depend on the processing

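The count of 39 genes with all pairs at least 2-fold apart became 116 at 1.5-fold, 8 at 4-fold and 23 with a mean CPM of at least 5, and 62 to 112 when 1 pair was left out. For GF against convR females at ZT2 to 10, the 975 calls became 2337 with no filter, 1674 with DESeq2 and 1636 with all 24 female libraries in 1 fit, and 3 to 1239 without 1 replicate of either status; with library-size scaling alone they were 1145, with 19.2% higher in place of 40.4%. At ZT14 to 22 the 789 calls became 2162 with library-size scaling alone, 1897 with no filter and 1200 with DESeq2, and 7 to 1612 without 1 replicate. Replicate contrasts with no filter and with DESeq2 gave 44 and 18 calls (GF females, ZT14 to 22), 2 and 6 (convR females) and 24 and 50 (GF males), and 2 to 5, 0 to 4 and 0 to 9 without 1 pair. In alternatives added after seeing the data, the replicate 1 median of the genes higher at ZT14 to 22 was 0.13 without TMM and 0.41 for genes called with library-size scaling. For the lower genes it was -0.43 without TMM, -0.24 with a pseudocount of 2, -0.25 for genes called without GF replicate 1 and -0.12 for genes called with library-size scaling, where the high-Nnt median was -0.0499. Log2 differences of GF from convR at ZT2 to 10 that changed sign when 1 replicate was left out ranged from -0.22 to 1.45 for Ctrc and Cela2a, -0.71 to 5.49 for Hapln1 (lowest without GF replicate 1 in each), -2.14 to 0.44 for Cyp3a41b (highest without convR replicate 2), and, lowest without GF replicate 2, -2.56 to 1.23 for Cyp2b10, -5.96 to 1.19 for Elovl3 and -1.17 to 1.13 for E2f8. Between replicates, without 1 pair, Nnt ranged from -0.166 to 0.0929 in GF females at ZT14 to 22 (0.0271 with library-size scaling) and -0.152 to 0.102 in GF males, and Wdfy1 from -0.125 to 0.362 and -0.289 to 0.015 in the same groups and -0.129 to 0.141 in convR females. Where removed libraries left 1 per cell, that library was assumed to vary like the others. The cause of these changes was not tested. Replicate differences of GF and convR at the same ZT had correlations of -0.34 to 0.21. Other combinations of status and ZT spanned -0.33 to 0.40, so these values cannot decide whether the numbers pair the samples. A fit with a replicate block called 1029 genes at ZT2 to 10 and 606 at ZT14 to 22, with Cyp2b10 at -0.54 and Elovl3 at -0.68. Of 578 settings for single genes, those listed here among them, 464 kept direction and side of the threshold, 53 lost a call and 21 gained one. A further 16 reversed direction and 24 moved in value. With 3 libraries a group, small differences were not detectable.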
